A study of Homo sapiens with 6 samples.

Results

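Chromosome 19 carries the densest collection of zinc finger genes in the human genome, and the transcripts of 240 of them were followed here in U2OS cells, an established human osteosarcoma line. The rule used name and place, not any measured value, though it was set with earlier results of these data known. It took protein-coding rows whose symbol is ZNF followed by a number and whose gene lies on chromosome 19 (GRCh38), with ZNF473 left out. They make up 240 of the 60708 gene rows counted. The study holds 6 strand-specific total RNA libraries, described as biological triplicates. Wild-type U2OS cells were kept for 4 days either in the solvent DMSO (3 libraries) or in 25 µM PDD00017273 (3 libraries), a compound that blocks PARG, the glycohydrolase that takes apart chains of poly(ADP-ribose). The treated group is called PARGi. All 6 libraries come from the same cancer line, so they describe that line alone.

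Zinc finger proteins of this family bind DNA through tandem fingers, each a short fold in which a pair of cysteines and a pair of histidines hold a zinc ion. Many of them also carry a KRAB domain near the start of the protein. KRAB recruits the co-repressor TRIM28, which brings in the histone methyltransferase SETDB1 and HP1 proteins and so places repressive H3K9 methylation on chromatin. Numerous targets are transposable elements, and the genes themselves arose by repeated local duplication.

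Fingers of different genes resemble each other in the letters of the transcripts. In the following stretches, each of 78 bases and read 5′ to 3′ from GENCODE 29 transcripts, the capitals mark the codons of the cysteines and histidines of the first finger that is followed by the usual linker. They are shown because these 4 genes include the largest rise and the largest fall among the called zinc finger genes.
ZNF404: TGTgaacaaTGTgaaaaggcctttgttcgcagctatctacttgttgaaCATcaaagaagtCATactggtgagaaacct
ZNF45: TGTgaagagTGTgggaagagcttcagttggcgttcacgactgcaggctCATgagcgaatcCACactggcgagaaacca
ZNF331: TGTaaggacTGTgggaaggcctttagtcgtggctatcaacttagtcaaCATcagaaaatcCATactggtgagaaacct
ZNF285: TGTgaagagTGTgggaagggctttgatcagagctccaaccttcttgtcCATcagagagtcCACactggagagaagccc
The first lies at chr19:43873236-43873313 (minus strand), the second at chr19:43914443-43914520 (minus strand), the third at chr19:53576957-53577034 (plus strand) and the last at chr19:44387048-44387125 (minus strand), each within a single coding exon. Pairs of these stretches were identical at 48 to 60 of the 78 bases. The marked codons and the linker were part of how the stretches were chosen, so some likeness was set by the choice. These values therefore cannot show how the genes arose. ZNF404 and ZNF331, which lie in different clusters of the long arm, were the most alike, and ZNF404 and its neighbour ZNF45 the least.

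Over the whole transcripts, the median gene of the 240 shared 9.27% of its 31-base words with a transcript of another gene. The share was 18.3% for ZNF404, 1.6% for ZNF45, 4.39% for ZNF331 and 15.4% for ZNF285. The share exceeded 50% for 11 genes, among them ZNF320 (79.2%) and ZNF564 (71.0%), and their values are uncertain. For ZNF320 and ZNF564 annotated genes on the same strand cover 78.5% and 69.9% of the exonic length. How reads in shared stretches were counted is not given in the sources used here. Of those 11, ZNF177, ZNF625, ZNF709, ZNF724 and ZNF763 had too few counts for a test and could not be called. The others were tested and not called, ZNF20 and ZNF564 at means of only 0.197 and 0.179 CPM. A search of the annotated coding sequences found a KRAB domain in 208 of the 240 genes, and a SCAN domain in 3 (ZNF274, ZNF444 and ZNF446). The number of fingers had a median of 12 and ran from 0 in ZNF738, whose annotated protein is short, to 36 in ZNF208.

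Library totals ran from 60286931 to 80605145 counts, and the composition scaling factors (TMM) from 0.9953 to 1.007. The osteosarcoma label was matched by high CPM (counts scaled to the size of the library) for the mesenchymal markers COL1A1 (4370 in DMSO), VIM (2480) and SPARC (1680), with RUNX2 at 83.3. Of 7 such genes 3 were lower in PARGi: COL1A2 (log2 fold change -0.80), RUNX2 (83.3 to 69.0 CPM) and SPARC (1680 to 1580 CPM), and their part in the results was not tested. The blood marker PTPRC stood at 1.2 CPM in DMSO, EPCAM at 3.53, PECAM1 at 0.378 and RBFOX3 at 0.586. The liver marker ALB and the telomerase gene TERT were at or near 0. In these bulk libraries fewer expressing cells and less RNA per cell cannot be told apart.

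Of the 240 genes, 205 had enough counts for a test, and the other 35 had at most 54 counts over all 6 libraries together. Counts of 0 in every library were found for 8 of these. The untested genes were not spread evenly. A run of 37 genes near the centromere on the short arm, from ZNF101 to ZNF254 (chr19:19668796-24129961), held 20 of the 35. Each of those 20 had a total of 17 counts or fewer, at a mean of at most 0.0415 CPM, while the remaining 17 genes of the run were read at 0.581 to 10.1 CPM (not divided by length), with no gene in between. Expressed and nearly silent genes were interleaved there: ZNF91, which restrains SVA elements, and ZNF93, known for restraining LINE-1 elements, were expressed, whereas ZNF43, ZNF208 and ZNF431 were not. The 203 genes outside the run included 9 under 0.05 CPM, against 20 of 37 within it. Among tested genes the level per length was modest, with a median of 1.39 CPM per kilobase of exon, compared with 2.50 for all 20409 tested genes.

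The level order per kilobase was led by ZNF146, at 30.6 CPM per kilobase, a protein that consists almost wholly of fingers. Next came ZNF428 at 29.4, ZNF358 at 13.2, ZNF574 at 8.09 and ZNF787 at 7.76 CPM per kilobase. None of these 5 has a KRAB domain by the search used, and none was called as changed. ZNF146 was read at 128, 125 and 125 CPM in DMSO and at 127, 129 and 126 CPM in PARGi. The groups overlapped, and the log2 fold change was 0.014 (95% limits -0.039 and 0.067; edgeR adjusted p = 0.754), with a negative sign under upper-quartile scaling and with protein-coding genes alone. For ZNF428, exons on the opposite strand cover 27.6% of its exonic length, and 3 of 16 alternative analyses called it as higher, including one without DMSO replicate 3 (log2 fold change 0.12, edgeR adjusted p = 0.0285, against 0.071 and 0.261 with all libraries). Without DMSO replicate 2, its lowest library at 46.4 CPM, the value was 5.2e-05 (edgeR adjusted p = 0.999). ZNF787 likewise passed only without DMSO replicate 3 (0.17, edgeR adjusted p = 0.00753, against 0.091 and 0.210), and without DMSO replicate 2 it was at 0.025 (0.761). ZNF574 passed only with the GC and length offset (0.088, edgeR adjusted p = 0.043, against 0.085 and 0.0885). For ZNF358, 20.2% of the exonic length is shared with another gene on its strand, and its sign turned in 2 alternatives.

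Comparison of PARGi with DMSO addressed how zinc finger transcripts stood after 4 days of PARG inhibition. Most did not pass the test: 23 of the 205 tested genes did (edgeR quasi-likelihood test, Benjamini-Hochberg adjusted p under 0.05 over all genes), which is 11.2%, against 24.3% of all tested genes. Of the 23, 8 were higher (3.90%, where all genes gave 13.2%) and 15 were lower (7.32%, where all genes gave 11.0%). No zinc finger gene was both called and changed by 1.5-fold or more, while 2.44% of all genes were, and 17 of the 23 calls were of less than 1.2-fold. All 3 libraries of a group lay beyond all 3 of the other for 51 of the 205 genes (24.9%), against 38.0% of all tested genes. At an unadjusted p under 0.05 the count was 49 of 205, where the share over all genes was 35.0%. The count of called genes fell when some single libraries were left out, and so did the share of all genes. It was 15 (7.32%) without PARGi replicate 2 and 13 (6.31%) without PARGi replicate 3, while all genes then gave 17.5% and 17.6%. With DESeq2 it was 15, where all genes gave 20.2%. The split by direction also depended on scaling: upper-quartile scaling gave 6 higher and 22 lower zinc finger genes, and an offset for GC content and length gave 13 and 15. Both also moved all genes: the share of calls that were higher was 54.5% in the main analysis, 40.5% with upper-quartile scaling and 64.6% with the offset, which called 29% of all genes at a median of 0.015.

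**Figure D1:**
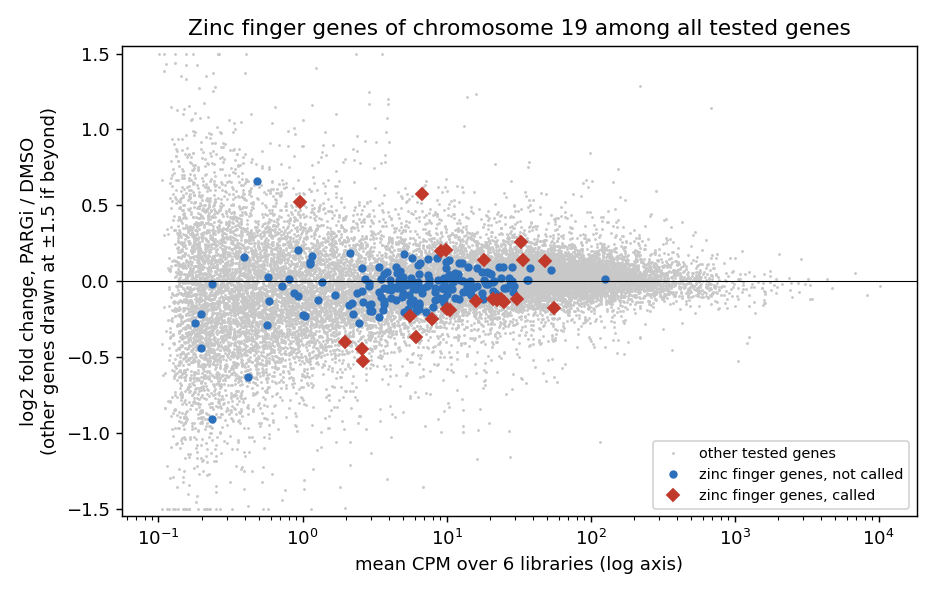
Log2 fold change of PARGi over DMSO against the mean CPM over 6 libraries (log axis), with each point a gene: grey, other tested genes; blue circles, zinc finger genes not called; red diamonds, the 23 called. The zinc finger genes form a band close to 0, and their called members lie between -0.53 and 0.58.

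Precision depends on count depth, so shares were also read within bands of mean CPM. Between 2 and 8 CPM, 6 of 83 zinc finger genes of chromosome 19 were called (7.23%), where all genes in the band gave 23.6%. Between 8 and 32 CPM, 11 of 87 were called (12.6%), where all genes gave 31.7%. The median standard errors in these bands were 0.086 and 0.051 for the zinc finger genes and 0.092 and 0.047 for all genes. Below 2 CPM the shares were 7.69% of 26 and 7.65% of all genes, and at 32 CPM or more 4 of only 9 zinc finger genes were called, where all genes gave 37.6%. The 95% confidence interval lay wholly within a 1.2-fold change in either direction for 126 of the 205 (61.5%) and within 1.5-fold for 188 (91.7%), compared with 48.7% and 71.7% of all tested genes. For all protein-coding genes, which were better read (median 4.89 CPM per kilobase), the shares were 64.8% and 85.7%, and 29.8% of them were called. These shares were not tested against each other.

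**Figure D2:**
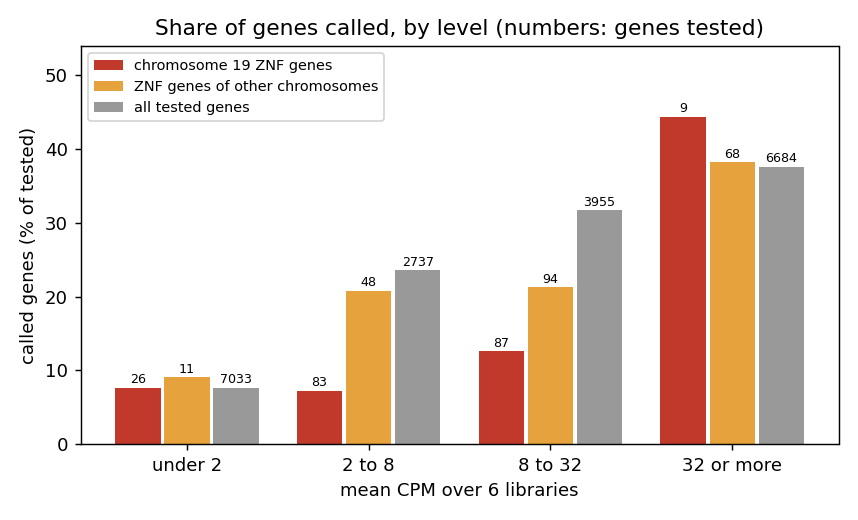
Share of tested genes that were called (%, bars from 0) in 4 bands of mean CPM, for zinc finger genes of chromosome 19 (red), ZNF-number genes of other chromosomes (orange) and all tested genes (grey), with the number of genes tested above each bar. In both middle bands the red bars, at 7.23% and 12.6%, stand below the grey bars at 23.6% and 31.7%.

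As a group the zinc finger transcripts lay slightly below 0. The median log2 fold change of the 205 was -0.041, and 131 (63.9%) were below 0, against a median of -0.0070 and 51.9% for all tested genes. On chromosome 19, the 17 tested genes with zinc finger names of other forms (such as ZFP or ZSCAN) had a median of 0.0079. Of these 17, 41.2% were below 0 and 2 were called (11.8%). The 834 other tested protein-coding genes of chromosome 19 had a median of -0.0058. The 221 tested ZNF-number genes of other chromosomes had a median of -0.037, with 64.3% below 0. Of those 221 genes 57 passed (25.8%), 17 higher and 40 lower. Those genes had a median of 3.27 CPM per kilobase and a median standard error of 0.048, compared with 0.069 on chromosome 19. Between 2 and 8 CPM, 10 of 48 of them were called (20.8%), and between 8 and 32 CPM 20 of 94 (21.3%). The summed CPM of the 240 genes was 2246, 2249 and 2216 in DMSO and 2203, 2217 and 2226 in PARGi. The groups overlapped, at means of 2237 ± 18.3 and 2215 ± 11.7 CPM (SD, n = 3 each), a change of -0.978%.

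ZNF404 had the smallest p and the largest change of the called genes. This KRAB gene with 14 fingers, in the zinc finger cluster of the long arm (chr19:43872363-43901385, minus strand), was read at 5.36, 5.75 and 5.05 CPM in the DMSO libraries and at 7.97, 8.08 and 8.01 CPM in the PARGi libraries. The PARGi libraries were almost equal and all above the DMSO libraries. The mean rose from 5.39 ± 0.348 to 8.02 ± 0.0536 CPM (SD, n = 3 each), a 1.49-fold increase (log2 fold change 0.58 with SE 0.069 by edgeR, adjusted p = 9.67e-07). An unnamed gene on the same strand, ENSG00000267058, covers 17.6% of its exonic length. That gene stood at 2.29 ± 0.345 CPM (DMSO) and 2.76 ± 0.212 CPM (PARGi) and was not called (log2 fold change 0.28, edgeR adjusted p = 0.103). How reads in the shared exons were assigned was not tested.

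ZNF331, an imprinted KRAB zinc finger gene (chr19:53519527-53580269, plus strand), had the next smallest p among the higher genes. Its values were 29.6, 29 and 31.1 CPM in DMSO and 34.9, 35.5 and 36.7 CPM in PARGi. The groups did not overlap, and the log2 fold change came to 0.26 ± 0.037 (SE; edgeR adjusted p = 1.52e-05).

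ZNF45, which lies next to ZNF404, rose from 32.3 ± 0.385 to 35.6 ± 0.716 CPM (log2 fold change 0.14, edgeR adjusted p = 0.00426). ZNF121, a finger protein with no KRAB domain found, rose from 46.3 ± 1.30 to 50.6 ± 1.10 CPM (0.13, edgeR adjusted p = 0.00419). ZNF404, ZNF331, ZNF45 and ZNF121 stayed past the threshold in all 16 alternative analyses. ZNF850 (9.26 ± 0.535 to 10.7 ± 0.687 CPM, log2 fold change 0.21) and ZNF829 (8.6 ± 0.345 to 9.82 ± 0.592 CPM, 0.20) belong to 1 cluster of the long arm. PARGi replicate 3 was their highest library, at 11.5 and 10.5 CPM. Without it ZNF850 was at 0.15 (edgeR adjusted p = 0.137) and ZNF829 at 0.14 (0.158). ZNF829 also lost its call without DMSO replicate 3 (0.16, edgeR adjusted p = 0.087), and ZNF850 without DMSO replicate 1 (0.19, 0.0705) or 3 (0.18, 0.059). ZNF841 (17.3 ± 0.698 to 19.1 ± 0.506 CPM, 0.14) was not past the threshold without DMSO replicate 3, PARGi replicate 1 or PARGi replicate 3 (edgeR adjusted p = 0.117, 0.103 and 0.0803). With all 6 libraries ZNF841 also lost its call with DESeq2 and with upper-quartile scaling. The last of the 8 was ZNF536, a regulator of neuronal differentiation, at only 0.789 ± 0.0797 and 1.12 ± 0.223 CPM. It held its call in 7 of 16 alternatives. With all libraries its log2 fold change was 0.52 (edgeR adjusted p = 0.046), without PARGi replicate 2 it was 0.35 (0.269), and of the 6 libraries only PARGi replicate 1 could be left out with the call kept. It is named to complete the count.

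**Figure D3:**
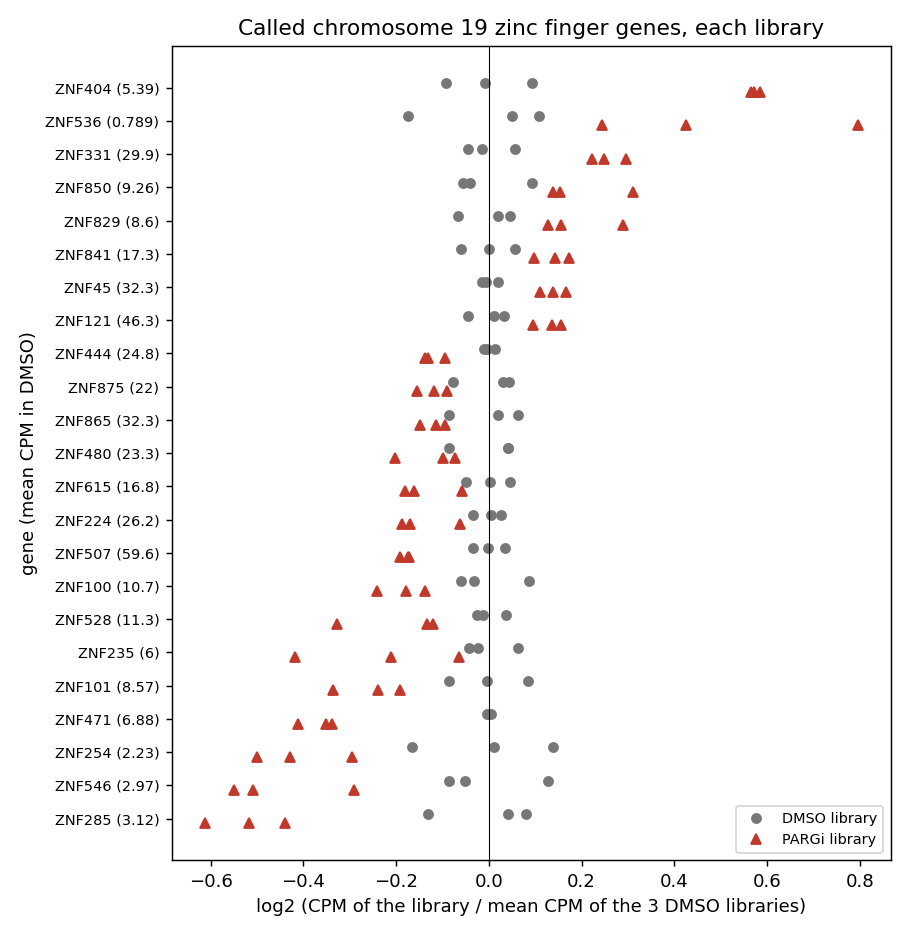
Level of the 23 called zinc finger genes in each library as log2 of its CPM over the mean of the 3 DMSO libraries, for DMSO (grey circles) and PARGi (red triangles), with the mean CPM in DMSO beside each name. The triangles of ZNF404 nearly coincide, between 7.97 and 8.08 CPM, whereas those of ZNF536 spread from 0.934 to 1.37 CPM.

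Among the lower genes, ZNF285 had the largest change. This KRAB gene (chr19:44382298-44401608, minus strand) was read at 2.85, 3.30 and 3.21 CPM in DMSO and at 2.30, 2.18 and 2.04 CPM in PARGi. Each PARGi value was below each DMSO value, and the fitted ratio was 0.693 (log2 fold change -0.53 with SE 0.11 by edgeR, adjusted p = 0.000749). It lies in the same cluster as ZNF404, with other zinc finger genes between them.

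ZNF546, a KRAB gene with 22 fingers, was at 2.87, 3.25 and 2.80 CPM in DMSO and at 2.43, 2.03 and 2.09 CPM in PARGi (log2 fold change -0.45 with SE 0.11 by edgeR, adjusted p = 0.00469). ZNF471, also of the KRAB type, had the tightest control values, at 6.87, 6.88 and 6.91 CPM, and fell to 5.45, 5.40 and 5.18 CPM (log2 fold change -0.37 with SE 0.069 by edgeR, adjusted p = 0.000302). ZNF507, with no KRAB domain found and well read at 59.5, 61.1 and 58.2 CPM in DMSO, was at 52.8, 52.9 and 52.2 CPM in PARGi. Its log2 fold change was small but precise, at -0.18 with a standard error of 0.030 (edgeR adjusted p = 7.60e-05). For these 3 genes, as for ZNF285, the groups were separate and the call held in all 16 alternatives.

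ZNF101 fell from 8.57 ± 0.513 to 7.18 ± 0.363 CPM (log2 fold change -0.25, edgeR adjusted p = 0.00705) and also held throughout. ZNF254 (2.23 ± 0.237 to 1.69 ± 0.118 CPM, -0.40, edgeR adjusted p = 0.0232) lost its call without DMSO replicate 3 (-0.32, 0.112), PARGi replicate 1 (-0.36, 0.0772) or PARGi replicate 2 (-0.39, 0.0744). ZNF235 (6.0 ± 0.236 to 5.14 ± 0.625 CPM, -0.23, edgeR adjusted p = 0.0451) lost its call without PARGi replicate 3, its lowest library at 4.49 CPM (-0.14, 0.290), and also without DMSO replicate 1 (-0.20, 0.150), DMSO replicate 3 (-0.25, 0.055) or PARGi replicate 2 (-0.25, 0.0902). With all 6 libraries ZNF235 also lost its call with DESeq2. The other 8 lower genes were ZNF100, ZNF224, ZNF444, ZNF480, ZNF528, ZNF615, ZNF865 and ZNF875, at log2 fold changes from -0.19 (ZNF528) to -0.12 (ZNF875). They are listed to complete the count, and each lost its call when any of at least 3 of the 6 libraries was left out. ZNF480 was the only called gene of the 23 whose groups overlapped. In all, 9 of the 23 called genes kept their call in every alternative.

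Members with known roles in holding down transposable elements were compared next. ZNF91 was read at 10.1, 9.31 and 8.80 CPM in DMSO and at 8.97, 9.96 and 9.45 CPM in PARGi, with overlapping groups and a log2 fold change of 0.013 (95% interval -0.12 to 0.14, edgeR adjusted p = 0.916). ZNF93 was at 2.39, 2.51 and 2.43 CPM and at 2.45, 2.00 and 2.50 CPM (-0.079, interval -0.32 to 0.16, edgeR adjusted p = 0.679), a wider interval. Neither difference was detectable at this depth, and the sign of each turned under some alternatives.

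ZNF417 and ZNF587, close paralogs that bind endogenous retroviruses of the HERV-K group, shared 49.7% and 31.7% of their 31-base words with other genes, so their division is uncertain. ZNF417 was at 12.6 ± 0.625 and 11.6 ± 0.495 CPM (log2 fold change -0.12, interval -0.23 to -0.0021, edgeR adjusted p = 0.135) and passed only without DMSO replicate 3 (-0.16, 0.0481). ZNF587 was at 23.9 ± 0.852 and 24.2 ± 1.16 CPM (0.021, interval -0.069 to 0.11, edgeR adjusted p = 0.786), and its sign turned under some alternatives. Exons on the opposite strand cover 33.3% of the exonic length of ZNF587.

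ZNF274, which carries KRAB and SCAN domains and guides SETDB1 to the ends of zinc finger genes themselves, was at 25.1, 27.1 and 24.5 CPM in DMSO and at 24.1, 24.7 and 25.3 CPM in PARGi. The groups overlapped (log2 fold change -0.047, interval -0.13 to 0.041, edgeR adjusted p = 0.474).

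The genes were then followed along the chromosome. With neighbours joined where their starts lie at most 1 Mb apart, the 240 genes fell into 15 runs, and 9 of these held at least 1 called gene. The counts by run stand beside 11.2% called and 63.9% below 0 for all 205 tested zinc finger genes, and 24.3% and 51.9% for all tested genes; no run was tested against the others. The short-arm run from ZNF101 to ZNF254 had the lowest median of the runs with at least 15 genes, at -0.12 over 17 tested genes, of which 14 were below 0 and 3 were called (ZNF100, ZNF101 and ZNF254, all lower). The run from ZNF653 to ZNF791, also on the short arm (chr19:11483427-12640098), had no called gene among 21 tested, although 17 lay below 0 and the median was -0.044. The largest run, 57 genes near the long-arm telomere from ZNF628 to ZNF446 (chr19:55476332-58481230), had 3 lower and 0 higher among 56 tested, with a median of -0.046. The cluster that holds ZNF404 and ZNF285 (chr19:43525497-45076588) had 2 higher and 3 lower among 23 tested. The run from ZNF175 to ZNF331 (chr19:51571298-53580269) had 2 higher and 3 lower among 36 tested and a median of -0.0048. ZNF404 and ZNF45 were the only called genes next to each other in this order that shared a direction.

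**Figure D4:**
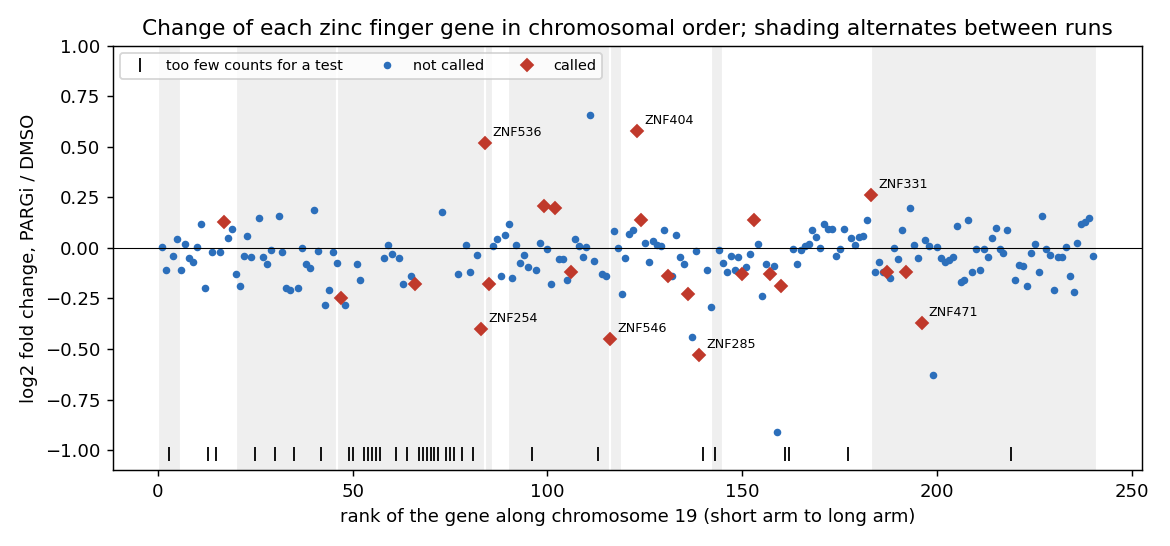
Log2 fold change of each zinc finger gene (vertical) by its rank along chromosome 19 (horizontal), with blue circles not called, red diamonds called, black ticks for the 35 genes with too few counts, and shading that alternates between the 15 runs. Ticks crowd in the short-arm run of 37 genes, which holds 20 of them, and called genes are scattered among uncalled ones.

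The counts were also read by protein features, beside 24.3% called over all tested genes (13.2% higher and 11.0% lower). Of 176 tested genes with a KRAB domain 18 were called (10.2%, 6 higher and 12 lower, median -0.036), and of 29 without it 5 were called (17.2%, 2 higher and 3 lower, median -0.049). The genes without KRAB were better read, at a median of 3.62 against 1.29 CPM per kilobase. By fingers, 9.26% of 54 genes with 9 or fewer were called, 9.33% of 75 with 10 to 13, and 14.5% of 76 with 14 or more. Among 114 tested genes that share under 10% of their words with other genes, 15 were called (13.2%), and among the 91 others 8 were (8.79%). None of these differences was tested.

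The promoters of ZNF404 and ZNF285, the called genes with the largest rise and fall, are shown to give the sequence around their starts. They are the 250 bases before the start in RefSeq (GRCh38.p14), 5′ to 3′ on the gene's strand, with capitals for the core of the metal response element. That core was searched as TGCGCNC or TGCACNC on both strands, because zinc-responsive genes use it.
ZNF404: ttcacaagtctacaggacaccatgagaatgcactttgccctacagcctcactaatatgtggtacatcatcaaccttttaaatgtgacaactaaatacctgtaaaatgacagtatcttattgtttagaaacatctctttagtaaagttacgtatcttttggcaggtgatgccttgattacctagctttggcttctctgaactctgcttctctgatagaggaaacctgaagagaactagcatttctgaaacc
ZNF285: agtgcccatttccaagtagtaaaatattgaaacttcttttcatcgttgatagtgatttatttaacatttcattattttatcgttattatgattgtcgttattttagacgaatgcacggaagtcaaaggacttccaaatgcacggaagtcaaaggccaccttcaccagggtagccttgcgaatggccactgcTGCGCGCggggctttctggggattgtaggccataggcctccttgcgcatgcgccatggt
The first lies at chr19:43883965-43884214 and the second at chr19:44401609-44401858, both on the minus strand. The RefSeq start of ZNF404 lies inside the longer gene of GENCODE 29 given above. ZNF404's window held 1 CpG and no match, and that of ZNF285 held 12 CpGs and 1 match. Promoters were given for 210 of the 240 genes, with a median of 15 CpGs in 250 bases, compared with 10 over all 27305 promoters. The core was found in 70 of the 210 (33.3%) and in 24.3% of all promoters. It was present in 1 of the 8 higher genes and in 4 of the 13 lower genes that have a promoter in the table. A match is a description of the letters only.

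Beside the zinc finger genes, 48 genes of repressive chromatin were read, all of them tested: 15 of the KRAB co-repressor core, 5 of the HUSH and MORC group, 14 of H3K9 methylation and heterochromatin (demethylases included), 8 of DNA methylation and 6 SCAN partners and others. Of the 48, 13 were called (27.1%, against 24.3% of all genes), 4 higher and 9 lower, at a median log2 fold change of -0.022. The co-repressor core had 1 higher and 3 lower of 15. TRIM28, the co-repressor that KRAB binds and itself a gene of chromosome 19, was at 153, 158 and 162 CPM in DMSO and at 152, 156 and 152 CPM in PARGi. The groups overlapped, and it was not called (log2 fold change -0.041, interval -0.10 to 0.015, edgeR adjusted p = 0.301). SETDB1, the H3K9 methyltransferase of the complex, fell from 48.9 ± 1.03 to 43.6 ± 1.57 CPM. Its highest PARGi library, at 45.4 CPM, was below its lowest DMSO library, at 47.9 CPM (log2 fold change -0.16 with SE 0.033 by edgeR, adjusted p = 0.000708).

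TET1, a dioxygenase that oxidises methylated cytosine, had the largest change of the called genes among the 48. It fell from 18.8 ± 0.690 to 12.8 ± 0.0767 CPM (log2 fold change -0.55 with SE 0.047 by edgeR, adjusted p = 5.09e-09), and no other of the 8 DNA methylation genes was called. POGZ, an HP1-binding protein, fell from 135 ± 1.15 to 123 ± 1.68 CPM (-0.14). ATRX, a remodeller of heterochromatin, fell from 296 ± 9.30 to 272 ± 2.76 CPM (-0.12), and KDM4C, an H3K9 demethylase, from 16.7 ± 0.256 to 14.9 ± 0.484 CPM (-0.17). On the higher side, CBX5, which encodes HP1 alpha, rose from 274 ± 2.75 to 297 ± 5.80 CPM (0.11) and SMCHD1, a silencing factor of the inactive X chromosome, from 185 ± 3.09 to 201 ± 1.95 CPM (0.11). Of the 14 genes of H3K9 methylation and heterochromatin 3 were higher and 3 lower. The other called genes were ATF7IP, CHD3, KDM4A and TASOR (lower) and SUV39H1 and SUV39H2 (higher), named to complete the count, and each of these 6 lost its call without at least 1 library.

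**Figure D5:**
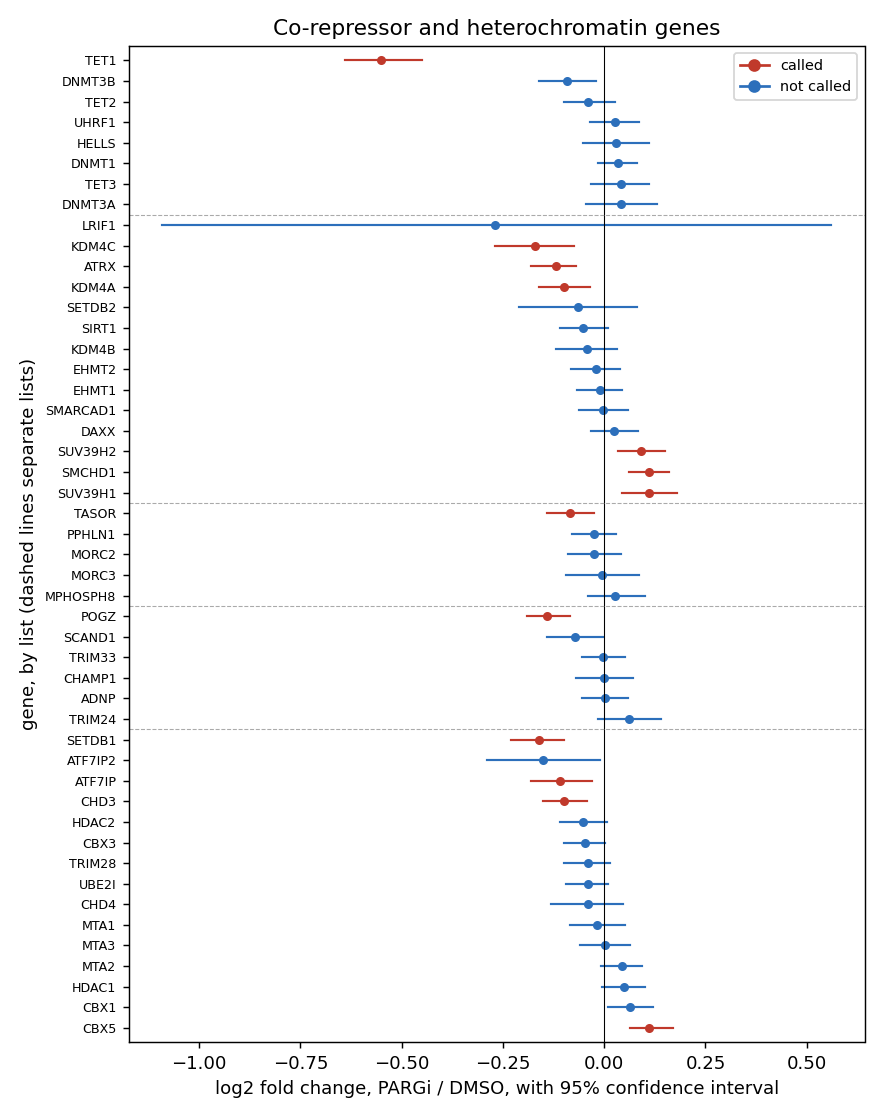
Log2 fold change of PARGi over DMSO (dots) with its 95% confidence interval (lines) for the 48 co-repressor and heterochromatin genes, with dashed lines between the 5 lists, red for called and blue for not called. TET1 stands apart at -0.55, and SETDB1 lies at -0.16 while TRIM28 spans 0.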

How the data were processed

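The deposited files hold raw gene counts, whole numbers that the authors did not normalise, 1 file per library. Per the submitters' processing notes, cutadapt 1.18, STAR 2.7.3a and the build hg38 were used. The annotation release, the treatment of multimapping reads and which strand was counted are not given in the sources used here. Without strand, reads of some genes cannot be told apart from those of genes on the opposite strand. Exons of such genes cover 40.5% of the exonic length of ZNF224, 23.3% of ZNF235, 27.6% of ZNF428 and 33.3% of ZNF587, among others. Every row carries an Ensembl gene ID, and 60463 of 60708 matched a symbol in a gene name table; positions, biotypes and exons came from GENCODE 29 (GRCh38).

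The test was edgeR 4.0.16 (R 4.3.3): genes kept by filterByExpr, TMM scaling, then glmQLFit and glmQLFTest (two-sided) for treatment, fitted on the 6 libraries with p-values adjusted by Benjamini-Hochberg over 20409 genes and a threshold of 0.05. CPM values are TMM-scaled, with the SD over 3 libraries, and the common dispersion gave a biological coefficient of variation of 2.70%. Alternatives used DESeq2 1.42.0, limma-voom (limma 3.58.1), other scalings, filters, a GC and length offset (loess span 0.3), a replicate block, and each library left out. Coding sequences were translated from GENCODE, since no protein table was used, and KRAB was found with a profile (pyhmmer, E-value 0.001) built from 213 windows of 44 residues in these same proteins.

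Groups came from the sample titles. The genes, lists and tests were chosen with earlier results of these data known. Rule for named genes: ZNF274, ZNF91, ZNF93, ZNF417 and ZNF587; the 6 called genes with the largest change in each direction at a mean of at least 1 CPM with separate groups; the 3 with the smallest p in each direction; the 5 highest per length; TRIM28, SETDB1 and up to 6 called genes of the chromatin lists. Others were chosen after their values were seen.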

Additional observations from a re-analysis of the deposited data

How the results depend on the processing

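Both groups carry replicate numbers 1 to 3. Deviations of same-numbered libraries correlated at -0.00585, 0.0157 and -0.00784 across genes, and those of differently numbered libraries at -0.0286 to 0.0354. The labels do not say whether same-numbered libraries shared a day or culture, and these values cannot decide it. With the replicate block 21 zinc finger genes were called, against 23, and 12 chromatin genes, against 13; with the block and the GC and length offset the counts were 24 and 16. DESeq2 called 15 zinc finger genes (9 lower), 2 of them without KRAB. The GC and length offset gave 13 higher genes. Upper-quartile scaling moved the median of the zinc finger genes to -0.066 and their summed CPM to a log2 ratio of -0.039, and it moved the median of all genes to -0.032 and the share of higher calls over all genes from 54.5% to 40.5%; the zinc finger genes then had 6 higher and 22 lower. Relative to all genes the median was -0.034; it was -0.0055 with no filter on low counts, where 38276 genes enter, and -0.052 with protein-coding genes alone. With each library left out, the count of called genes ran from 13 to 24, of higher genes from 4 to 9, of lower genes from 8 to 17, of genes with KRAB from 11 to 19 and without KRAB from 2 to 5, of chromatin genes from 9 to 14, and of runs with a called gene from 7 to 9; the median ran from -0.048 to -0.028 (relative to all genes -0.043 to -0.022), and the summed log2 ratio from -0.021 to -0.010. The cause of these shifts was not tested. A gap of 0.5 Mb left 9 runs with a called gene. Over these settings 6.31% to 13.7% of the zinc finger genes were called, below the share of all genes in each.

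Signs turned only for uncalled genes: ZNF146 (-0.011 with upper-quartile scaling, -0.0015 with protein-coding genes alone), ZNF358 (-0.0040 with upper-quartile scaling), ZNF587 (-0.0040 with upper-quartile scaling) and ZNF91 (-0.012 with upper-quartile scaling, -0.0025 with protein-coding genes alone). With each library left out, ZNF358 ran from -0.030 (without DMSO replicate 1) to 0.060, ZNF587 from -0.011 (without DMSO replicate 3; -0.0078 without PARGi replicate 3) to 0.056, ZNF91 from -0.036 (without DMSO replicate 3; -0.025 without PARGi replicate 2) to 0.065, and ZNF93 from -0.14 to 0.018 (without PARGi replicate 2).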

Other observations

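Beyond the 23 called genes, 29 zinc finger genes of chromosome 19 had groups that did not overlap without passing the adjusted threshold. Called or not, groups did not overlap for 24.9% of the 205 tested zinc finger genes, against 38.0% of all tested genes. Of those with a mean of at least 1 CPM, ZNF136 came nearest, with a log2 fold change of -0.20 (edgeR adjusted p = 0.0514), followed by ZNF440 (0.15, 0.069) and ZNF225 (-0.14, 0.0712). They were chosen after their values were seen. ZNF880 and ZNF540 had the largest fitted changes of all tested zinc finger genes, at -0.91 and 0.66, but they were read at means of only 0.234 and 0.484 CPM and were not called (edgeR adjusted p = 0.0672 and 0.0618).

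By strand, 11 lower and 2 higher genes were called among 114 tested on the plus strand, and 4 lower and 6 higher among 91 on the minus strand. The share called was almost equal, at 11.4% and 11.0%, against 24.3% of all tested genes. By direction, 1.75% were higher and 9.65% lower on the plus strand, and 6.59% higher and 4.40% lower on the minus strand. All tested genes, on both strands together, gave 13.2% higher and 11.0% lower. This split was not tested. The sequence CACGTG, an E-box, was found in 7 of the 210 promoters (3.33%), compared with 6.28% of all promoters, and TGACGTCA, a cAMP response element, in 7 (3.33%), compared with 1.73%.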
